A study of Schizosaccharomyces pombe with 6 samples.

Results

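The 10 genes described here are *hmg1*, *erg1*, *erg7*, *erg11*, *erg24*, *erg25*, *erg31*, *erg32*, and *erg5*, which encode enzymes of ergosterol synthesis in *Schizosaccharomyces pombe*, and *sre1*, which encodes the sterol-sensing transcription factor of this yeast. They were taken by gene symbol from a table of 5184 genes, all 10 symbols were found, and all 10 passed the low-count filter that left 4969 genes to test. mRNA was sequenced from 3 *htb1-K119R* and 3 WT cultures, described by the study as independent biological repeats. In *htb1-K119R* (YGF226, *h- ura4-D18 htb1-K119R::kanMX6*), the lysine of H2B that carries ubiquitin is replaced by arginine in the only H2B gene, and H2B ubiquitination (H2Bub) is absent. The WT strain (TK8) is *h+ ade6-M216 leu1-32 ura4-D18*. Both strains carry *ura4-D18*, and they also differ in mating type, at *ade6* and *leu1*, and by the *kanMX6* cassette, so these differences cannot be told apart from the substitution. The comparison addresses which transcripts differ in cells that lack H2Bub.

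Ergosterol is the main sterol of fungal membranes. It is made from acetyl-CoA through mevalonate, isoprenoids, squalene, and lanosterol, and several late steps consume molecular oxygen and use heme. Fission yeast reads this supply with Sre1, a homolog of mammalian SREBP. Sre1 is held in the endoplasmic reticulum membrane by its partner Scp1, is cleaved when sterols or oxygen run low, and its freed N-terminal part then activates sterol genes and *sre1* itself in the nucleus.

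Positions are those of the ASM294v3 assembly, since the deposited table carries none. Of the members, *hmg1* lies on chromosome III, *erg1*, *erg24*, *erg32*, and *sre1* lie on chromosome II, and *erg7*, *erg11*, *erg25*, *erg31*, and *erg5* lie on chromosome I. *erg31* and *erg32* both encode C-5 sterol desaturases and are the only members with a similar copy among them. Their nucleotide identity was 65.867% over 42.6% of the *erg32* transcript, and the longest run of bases they share is 15 bases long. The windows around this run, both inside the coding sequence, are printed because reads of the paralogs have to be told apart for the results on *erg32*, with the shared run in capitals.

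*erg31*, chromosome I, reverse strand, chrI:933364-933438: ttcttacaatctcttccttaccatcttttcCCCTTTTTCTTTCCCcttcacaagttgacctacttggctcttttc

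*erg32*, chromosome II, reverse strand, chrII:1324775-1324849: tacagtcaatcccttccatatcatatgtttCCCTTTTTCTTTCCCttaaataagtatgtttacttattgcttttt

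The 120 bases before the annotated start of *sre1* are printed because *sre1* was the only member with a match to a sterol regulatory element form there. The letters TCACNCCAC were found on either strand, from 250 bases before to 50 after the start, in 9 of 5123 genes (0.176%) and in 0 of the 10 members. The looser TCANNCCAC, which contains them, was found in 73 of 5123 genes (1.42%) and in 1 of 10 members, *sre1*, 52 to 44 bases before its start. A shorter run, ATCACCCC, was searched after the *sre1* window had been seen, and it lies 96 to 89 bases before the start. It was found in 6 of 5123 genes (0.117%) and in no member besides *sre1*. Both matches are in capitals, and a match is a description of these letters only.

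*sre1*, chromosome II, forward strand, chrII:1691274-1691393: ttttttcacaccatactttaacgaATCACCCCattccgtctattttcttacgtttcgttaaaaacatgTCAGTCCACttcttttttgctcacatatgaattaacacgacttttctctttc

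The libraries held 15987167 to 20701391 counts, and the lowest count of any member in any library was 541, so counting error was small for all 10 genes. A floor of 3 counts corresponds to 0.124 to 0.228 CPM, the counts scaled to a common library size with TMM factors, and the lowest member value was 30.5 CPM. WT replicate 3 stood apart. It differed from WT replicates 1 and 2 by a mean absolute log2 difference of 0.402 and 0.336, whereas WT replicates 1 and 2 differed by 0.2 and the *htb1-K119R* libraries by 0.16 to 0.228. The difference followed expression level, as its median ratio to the mean of WT replicates 1 and 2 was 1.17 over the 1243 genes of lowest CPM and 0.805 over the 1242 genes of highest CPM, which include every member except *erg7*. Not every member followed this, as the ratio was 1.16 for *hmg1*, 1.2 for *sre1*, and 1.06 for *erg7*. For the other members it was 0.661 (*erg25*) to 0.959 (*erg31*). *ura4* had a count of 0 in all 6 libraries, but both strains carry *ura4-D18*, so this does not tell the strains apart. The markers that differ, *ade6* (log2 fold change −0.01, adjusted *P* = 0.97) and *leu1* (−0.48, adjusted *P* = 0.0812), were not called in edgeR. *leu1* was called in DESeq2 (−0.49, adjusted *P* = 0.0334) and with library totals (−0.28, adjusted *P* = 0.0309 in edgeR). It was called lower in 7 of 19 alternatives, and without WT replicate 3 the value was −0.68 (adjusted *P* = 1.54e-05 in edgeR). *htb1* averaged 1400 ± 55.8 CPM in *htb1-K119R* and 1670 ± 268 CPM in WT (SD, n = 3 each) and was not called (log2 fold change −0.26, adjusted *P* = 0.26 in edgeR), which does not check the substitution. Without WT replicate 3, *htb1* was called lower (−0.38, adjusted *P* = 0.00257 in edgeR).

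Between *htb1-K119R* and WT, the sterol genes moved little and in both directions. Transcripts of *erg32* and of the regulator *sre1* rose by 1.27-fold and 1.32-fold, and that of *hmg1*, which encodes HMG-CoA reductase, fell to 0.78 of the WT level. The 7 other members were not called at an adjusted *P* of 0.05 in edgeR, and 0 of 10 changed by more than 2-fold, the fold threshold of the study for DEGs. Their largest change was 0.4 on the log2 scale, so none passes that fold at an unadjusted *P* either, and DESeq2 also gave 0. At the same adjusted *P* of 0.05, 2 of 10 members were higher, against 18.6% of all 4969 genes tested, and 1 of 10 was lower, against 19.3% of all genes. In either direction 3 of 10 members were called, against 37.9% of all genes, so the share of members called is near that of all genes. The median log2 fold change of the members was 0.05, and that of all genes was −0.01. With the 2-fold threshold added, 4.71% of all genes were higher and 3.64% lower. Without WT replicate 3, 2 members were higher and 2 lower in edgeR, as *erg25* was then called as well. In that fit 1319 of all 4987 genes tested were higher and 1375 lower. No member was called without WT replicate 2, *htb1-K119R* replicate 1, or *htb1-K119R* replicate 3, only *erg32* and *hmg1* were called without WT replicate 1, and only *erg32* and *sre1* without *htb1-K119R* replicate 2. A change in RNA per cell and a change in the make-up of the culture cannot be told apart in such bulk RNA.

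**Figure D1:**
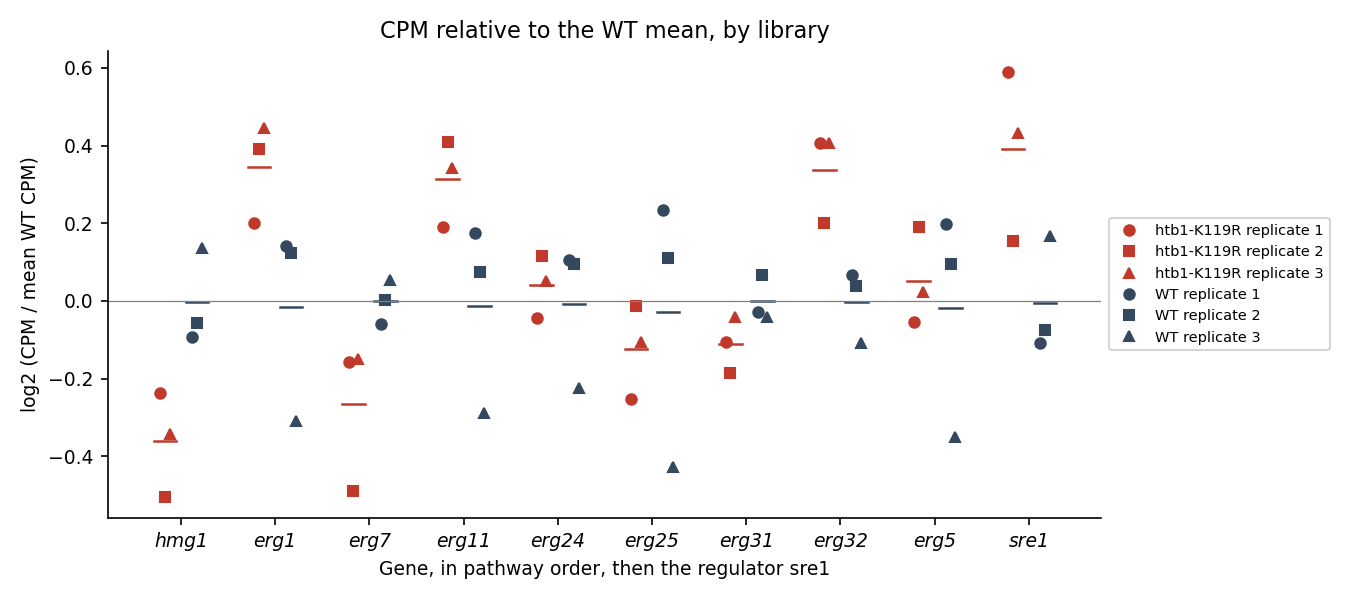
CPM of each of the 10 genes in each library, as the log2 ratio to the mean of the 3 WT libraries, with red for *htb1-K119R*, dark blue for WT, 1 marker shape for each replicate number, and a line at the mean of the log2 values. All 3 *htb1-K119R* points of *hmg1* and *erg7* lie below the WT points, those of *erg1*, *erg11*, and *erg32* lie above them, and WT replicate 3 is the lowest WT point of every gene except *hmg1*, *erg7*, and *sre1*.

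*hmg1* (SPCC162.09c, chromosome III, 1561215 to 1565491, forward strand, 1 exon) encodes HMG-CoA reductase, which makes mevalonate and is the main point of control of sterol synthesis. It had 142, 118, and 132 CPM in *htb1-K119R* replicates 1, 2, and 3, against 157, 161, and 184 CPM in the WT replicates. All *htb1-K119R* libraries were below all WT libraries. This gave a log2 fold change of −0.36 (SE 0.113, 95% interval −0.61 to −0.11) with an adjusted *P* of 0.0296 in edgeR's quasi-likelihood test, and an exact two-sided permutation test gave *P* = 0.1, the smallest that 3 against 3 libraries allow. The call was lost in edgeR without WT replicate 2 (−0.39, adjusted *P* = 0.0733) and without *htb1-K119R* replicate 1 (−0.42, adjusted *P* = 0.05), 2 (−0.31, adjusted *P* = 0.0935), or 3 (−0.37, adjusted *P* = 0.101). With library totals in place of TMM the log2 fold change was −0.21 (adjusted *P* = 0.482 in edgeR), and with offsets for GC content and gene length it was −0.76 (adjusted *P* = 0.000129 in edgeR).

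*erg1* (SPBC713.12, chromosome II, 892160 to 894361, forward strand, 1 exon) and *erg7* (SPAC13G7.01c, chromosome I, 2292636 to 2295282, reverse strand, 4 exons) encode squalene epoxidase and lanosterol synthase, which together turn squalene into lanosterol. *erg1* had 758, 865, and 898 CPM in *htb1-K119R*, against 728, 719, and 532 CPM in WT. All *htb1-K119R* libraries were above all WT libraries, with *htb1-K119R* replicate 1 close to WT replicate 1 and WT replicate 3 well below the rest. The log2 fold change of *erg1* was 0.35 (SE 0.161, 95% interval −0.01 to 0.71, adjusted *P* = 0.11 in edgeR), so the change was not called, and without WT replicate 3 it was 0.21 (adjusted *P* = 0.0734 in edgeR). *erg7* had 38.4, 30.5, and 38.6 CPM in *htb1-K119R*, against 41.1, 42.9, and 44.5 CPM in WT. Its libraries were ordered the other way, all *htb1-K119R* values below all WT values, with *htb1-K119R* replicate 2 the lowest. *erg7* thus had a log2 fold change of −0.26 (SE 0.118, 95% interval −0.52 to 0.00, adjusted *P* = 0.108 in edgeR). *erg7* overlaps SPAC4G9.22 on the other strand by 143 bases, a gene whose log2 fold change was −0.08 (adjusted *P* = 0.612 in edgeR), and whether the counting used strand is not stated. Annotated genes that were not counted overlap every member except *erg25* and *erg31* on the other strand, so *hmg1* and *sre1* carry this limit too. Library totals gave *erg1* a call (0.54, adjusted *P* = 0.000786 in edgeR), and the GC and length offsets gave *erg7* one (−0.43, adjusted *P* = 0.00531 in edgeR).

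*erg11* (SPAC13A11.02c, chromosome I, 574652 to 577153, reverse strand, 1 exon) encodes the lanosterol 14-alpha demethylase, a cytochrome P450 and the target of azole antifungals. *erg11* had 953, 1110, and 1060 CPM in *htb1-K119R*, against 943, 880, and 685 CPM in WT. The groups did not overlap, but *htb1-K119R* replicate 1 exceeded WT replicate 1 by little. The log2 fold change was 0.32 (SE 0.162, 95% interval −0.04 to 0.68, adjusted *P* = 0.142 in edgeR), and without WT replicate 3 it was 0.19. With library totals it was 0.51 and called (adjusted *P* = 0.000636 in edgeR). In the same way as *erg1*, *erg11* was thus higher in every *htb1-K119R* library than in any WT library and was called or not by the scaling.

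*erg24* (SPBC16G5.18, chromosome II, 4250013 to 4251433, forward strand, 1 exon) encodes the C-14 sterol reductase, and *erg25* (SPAC630.08c, chromosome I, 359638 to 361317, reverse strand, 1 exon) encodes the C-4 methyl sterol oxidase. *erg24* had 119.2, 132.9, and 126.7 CPM in *htb1-K119R*, against 132, 131.3, and 105 CPM in WT. The groups overlapped, and the log2 fold change was 0.04 (95% interval −0.21 to 0.30, adjusted *P* = 0.799 in edgeR). *erg25* had 1220, 1440, and 1350 CPM in *htb1-K119R*, against 1710, 1570, and 1080 CPM in WT. The *htb1-K119R* libraries lay between the WT libraries, below WT replicates 1 and 2 and above WT replicate 3. For *erg25* the log2 fold change was −0.12 (95% interval −0.55 to 0.31, adjusted *P* = 0.653 in edgeR). Without WT replicate 3 it was −0.29 and called (adjusted *P* = 0.0214 in edgeR), and with library totals it was 0.08.

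The C-5 sterol desaturases behaved unequally. *erg31* (SPAC1687.16c, chromosome I, 932425 to 933968, reverse strand, 1 exon) had 221, 209, and 231 CPM in *htb1-K119R*, against 233, 249, and 231 CPM in WT. The groups overlapped, and the log2 fold change was −0.11 (SE 0.103, 95% interval −0.34 to 0.12, adjusted *P* = 0.423 in edgeR). *erg32* (SPBC27B12.03c, chromosome II, 1324193 to 1325464, reverse strand, 1 exon) had 101, 87.5, and 101 CPM in *htb1-K119R*, against 79.7, 78.2, and 70.6 CPM in WT. All *htb1-K119R* libraries exceeded all WT libraries. For *erg32* the log2 fold change was 0.34 (SE 0.104, 95% interval 0.11 to 0.57, adjusted *P* = 0.0255 in edgeR), with an exact two-sided permutation *P* of 0.1. It was called with library totals (0.52) and with the GC and length offsets (0.41) as well. It lost the call in edgeR without WT replicate 2 (0.36, adjusted *P* = 0.0762), without *htb1-K119R* replicate 1 (0.31, adjusted *P* = 0.11), and without *htb1-K119R* replicate 3 (0.31, adjusted *P* = 0.115). *erg32* overlaps *mis19* on the other strand by 182 bases, where *mis19* had 11.8 to 15.8 CPM in *htb1-K119R* and 11.2 to 19.4 CPM in WT.

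*erg5* (SPAC19A8.04, chromosome I, 2480065 to 2482169, reverse strand, 2 exons) encodes the C-22 sterol desaturase, a second cytochrome P450 of the pathway. *erg5* had 1460, 1730, and 1540 CPM in *htb1-K119R*, against 1740, 1620, and 1190 CPM in WT. The groups overlapped, and the log2 fold change was 0.06 (SE 0.184, 95% interval −0.35 to 0.46, adjusted *P* = 0.836 in edgeR). It was −0.09 without WT replicate 3, and with library totals it was 0.25 and called (adjusted *P* = 0.0149 in edgeR).

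*sre1* (SPBC19C2.09, chromosome II, 1691394 to 1694691, forward strand, 1 exon) had 146, 108, and 131 CPM in *htb1-K119R*, against 90.0, 92.1, and 109 CPM in WT. *htb1-K119R* replicate 2 lay just below WT replicate 3, so the groups overlapped, and the other *htb1-K119R* libraries were above every WT library. The log2 fold change was 0.40 (SE 0.13, 95% interval 0.12 to 0.69) with an adjusted *P* of 0.0327 in edgeR's quasi-likelihood test, and an exact two-sided permutation test gave *P* = 0.2. Without WT replicate 3 it was 0.49 (adjusted *P* = 0.00068 in edgeR). The call was lost in edgeR without WT replicate 1 (0.35, adjusted *P* = 0.083) or 2 (0.37, adjusted *P* = 0.124) and without *htb1-K119R* replicate 1 (0.30, adjusted *P* = 0.154) or 3 (0.39, adjusted *P* = 0.106). It was also lost with library totals (0.55, adjusted *P* = 0.105 in edgeR) and with the GC and length offsets (0.12, adjusted *P* = 0.356 in edgeR).

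Over the 10 members, the libraries of 5 did not overlap between genotypes, 3 of them higher in *htb1-K119R* (*erg1*, *erg11*, and *erg32*) and 2 lower (*hmg1* and *erg7*). Over all genes tested, 25% did not overlap and were higher, and 23.9% did not overlap and were lower. The non-overlapping members are therefore near the share of all genes, 48.8% in either direction. Of the oxygen-consuming enzymes *erg1*, *erg11*, *erg25*, *erg31*, *erg32*, and *erg5*, *erg32* was the only one called, 1 of 6 against 37.9% of all genes. With library totals, *erg1*, *erg11*, and *erg5* were called as well, 4 of 6, where 815 of all 4969 genes were called higher and 403 lower.

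**Figure D2:**
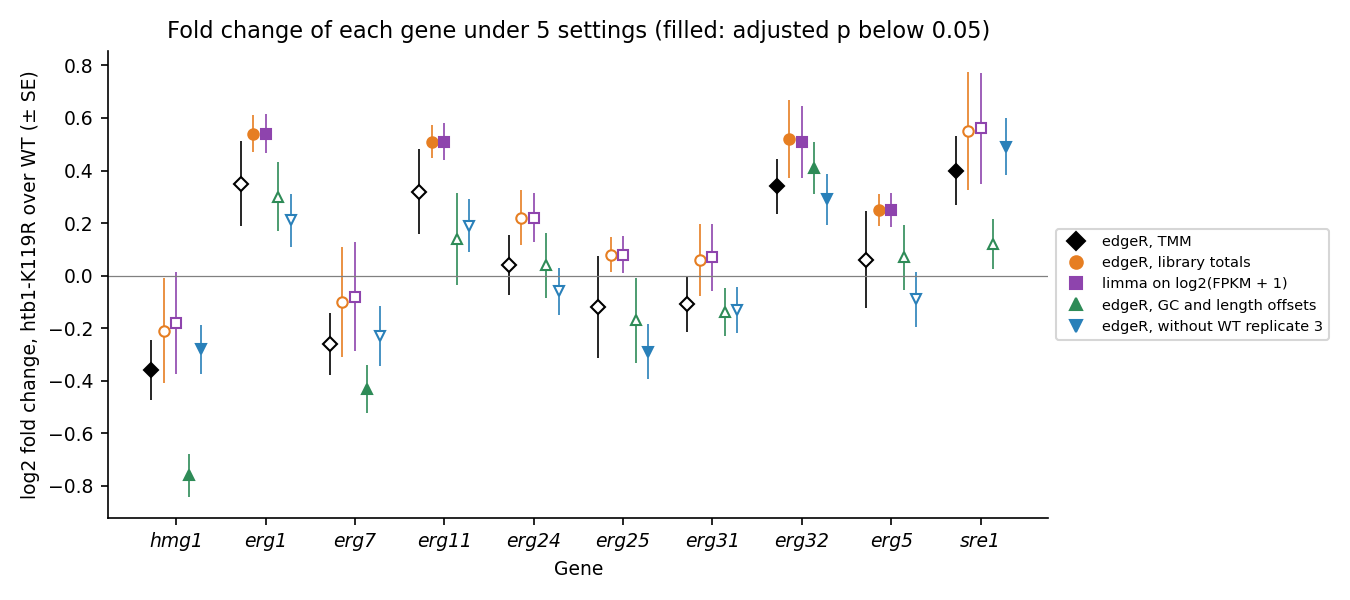
log2 fold change of *htb1-K119R* over WT for each gene, with its SE, under 5 settings, where a filled marker has an adjusted *P* below 0.05. *erg32* is positive and filled under all 5, *hmg1* is negative under all 5 and filled under 3, *sre1* is positive under all 5 and filled under 2, and *erg25* and *erg31* are on the positive side only with library totals and with FPKM.

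Which sterol genes were called also changed with the scaling of the libraries. TMM factors were 0.824 to 0.863 in WT replicates 1 and 2 and up to 1.17 in WT replicate 3, and dividing by library totals instead moved the median log2 fold change of all genes to 0.15. The split of all genes called was then 815 higher and 403 lower, where TMM gave 924 higher and 958 lower. Under library totals, 4 members were called higher (*erg1*, *erg11*, *erg32*, and *erg5*) and 0 lower, and *erg25* (0.08) and *erg31* (0.06) turned positive without a call. Limma on log2(FPKM + 1) also called these 4 members higher and 0 lower, and the median of all genes was then 0.15. The 10 genes together took 0.583%, 0.588%, and 0.593% of the counts of the *htb1-K119R* libraries, against 0.482%, 0.478%, and 0.495% in WT. This summed share, which is on the scale of library totals, was higher in each *htb1-K119R* library than in each WT library. The 100 genes of highest count took 48.1% to 50.9% of the counts in *htb1-K119R* and 49.1% to 53.6% in WT, and the part of this in the difference between scalings was not tested.

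Levels between genes were compared per length, in FPKM (fragments scaled by transcript length and library size), with the order given for each genotype. In *htb1-K119R* the order was *erg5* (922 ± 32.5 FPKM), *erg25* (871 ± 24.3 FPKM), *erg11* (439 ± 10.8 FPKM), *erg1* (406 ± 22.8 FPKM), *erg31* (147 ± 13.1 FPKM), *erg24* (95.5 ± 0.228 FPKM), *erg32* (62.8 ± 8.19 FPKM), *sre1* (40.1 ± 8.14 FPKM), *hmg1* (32.4 ± 4.83 FPKM), and *erg7* (15.7 ± 2.72 FPKM; mean ± SD, n = 3). The libraries of *erg11* and *erg1* overlapped there, as did those of *sre1* and *hmg1*. In WT the order was *erg25* (824 ± 43.5 FPKM), *erg5* (776 ± 13.6 FPKM), *erg11* (309 ± 8.49 FPKM), *erg1* (279 ± 5.59 FPKM), *erg31* (141 ± 25.2 FPKM), *erg24* (81.9 ± 5.12 FPKM), *erg32* (43.8 ± 5.66 FPKM), *hmg1* (37.4 ± 11 FPKM), *sre1* (27.4 ± 8.57 FPKM), and *erg7* (16.8 ± 3.99 FPKM). *erg25* and *erg5* overlapped in WT, and so did *erg32* with *hmg1* and *hmg1* with *sre1*. The order changed in the top pair and in the pair *sre1* and *hmg1*, both of which overlapped in at least 1 genotype. The late enzymes *erg5* and *erg25* thus held the highest levels in both genotypes, and lanosterol synthase the lowest.

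**Figure D3:**
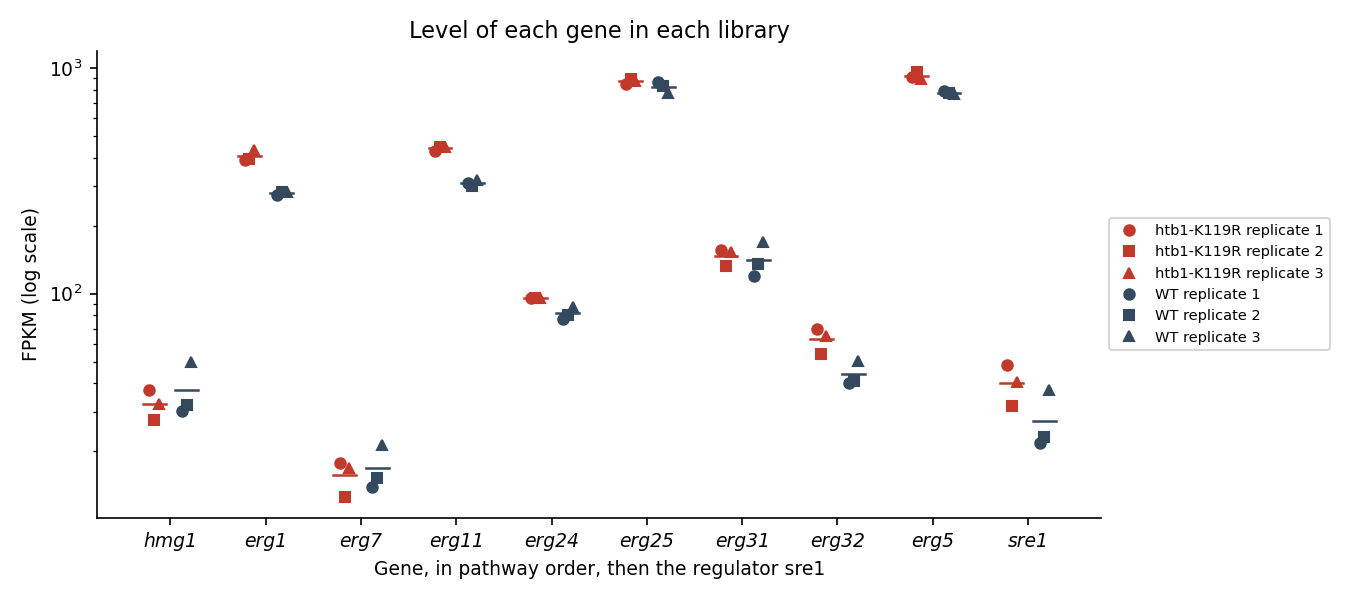
FPKM of the 10 genes in each library, on a log axis, with red for *htb1-K119R*, dark blue for WT, 1 marker shape for each replicate number, and a line at the mean. *erg5* and *erg25* lie near the top in both genotypes, *erg7* lies lowest at 15.7 ± 2.72 FPKM in *htb1-K119R* and 16.8 ± 3.99 FPKM in WT, and WT replicate 3 is the highest WT library of every gene except *erg25* and *erg5*.

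A ratio of counts within a library does not depend on the scaling between libraries. The ratios given here were chosen after the values were seen. For every *hmg1* count there were 1.03, 0.919, and 0.991 *sre1* counts in *htb1-K119R*, against 0.573, 0.573, and 0.591 in WT. The ratio was 1.69-fold higher in *htb1-K119R*, and WT replicate 3 lay with the other WT libraries. *erg32* gave 31.5%, 29.5%, and 30.3% of the counts of both C-5 desaturase genes in *htb1-K119R*, against 25.5%, 23.9%, and 23.4% in WT. The balance between the paralogs thus stood closer to *erg32* in each *htb1-K119R* library, while *erg31* gave most of the counts in all 6. There were 0.781, 0.77, and 0.79 *erg11* counts per *erg25* count in *htb1-K119R*, against 0.552, 0.561, and 0.633 in WT. *erg1* counts per *erg25* count were 0.621, 0.599, and 0.667 in *htb1-K119R*, against 0.427, 0.459, and 0.492 in WT. Each of these ratios gave *P* = 0.1 in an exact two-sided permutation test, the smallest possible here. Over all 45 pairs of members, 20 (44.4%) had ratios that did not overlap between the genotypes, against 50.2% of the 12224040 pairs of the 4945 genes with counts in every library. The sterol genes were therefore not more often out of proportion with each other than genes at large.

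**Figure D4:**
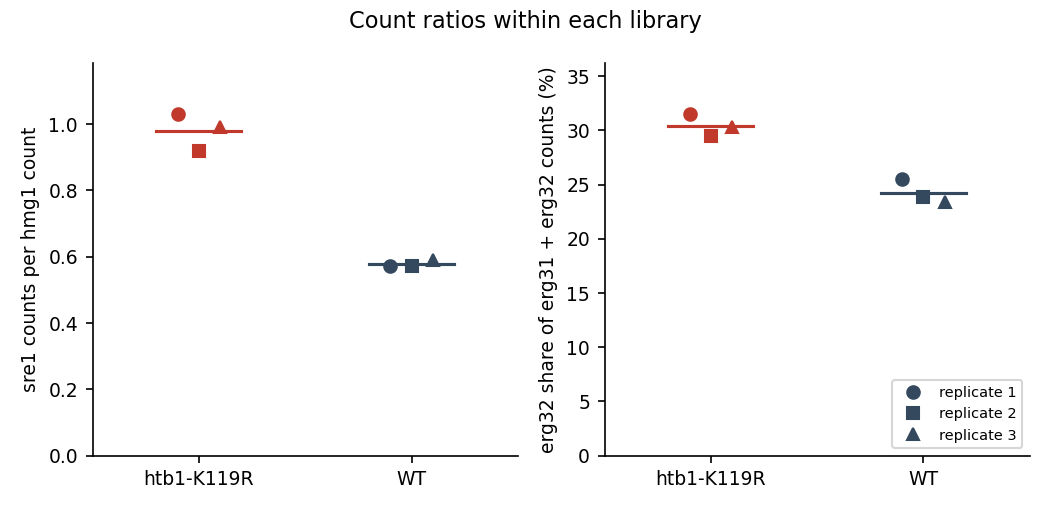
Count ratios within each library for *htb1-K119R* (red, left) and WT (dark blue, right), with 1 marker shape for each replicate number and a line at the mean. The number of *sre1* counts per *hmg1* count is 0.979 ± 0.0552 in *htb1-K119R* and 0.579 ± 0.0104 in WT, and the *erg32* share of *erg31* and *erg32* counts is 30.4% ± 0.988 in *htb1-K119R* and 24.3% ± 1.1 in WT (mean ± SD, n = 3).

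The other genes of sterol metabolism were read from 5 lists with 35 tested genes, of which 8 were higher and 8 lower in *htb1-K119R* at an adjusted *P* of 0.05 in edgeR, against 18.6% and 19.3% of all genes. With library totals the split was 11 higher and 2 lower, as it was in limma on log2(FPKM + 1). Of all genes, 815 were then higher and 403 lower among 4969 with library totals, and 901 and 449 among 4777 in limma. None of the 35 passed the 2-fold threshold in edgeR, and none had so large a change at an unadjusted *P*, the largest being 0.82 on the log2 scale. Their median log2 fold change was 0.02. Without WT replicate 3, 10 were higher and 13 lower in edgeR, and without 1 of the other libraries 2 to 7 were higher and 4 to 6 lower, with 2 higher without WT replicate 2 or *htb1-K119R* replicate 1. Among all 4987 genes tested without WT replicate 3, 1319 were higher and 1375 lower. Over all genes, leaving out 1 of the other libraries gave 577 to 819 higher and 570 to 840 lower. Of these 35 genes, the calls of *dap1*, *dsc1*, *dsc5*, and *rbd2* held under all 19 alternatives run. Among the list genes called, *erg6*, *erg9*, *sre2*, *dsc1*, *dsc3*, and *ofd1* overlap a counted gene on the other strand.

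**Figure D5:**
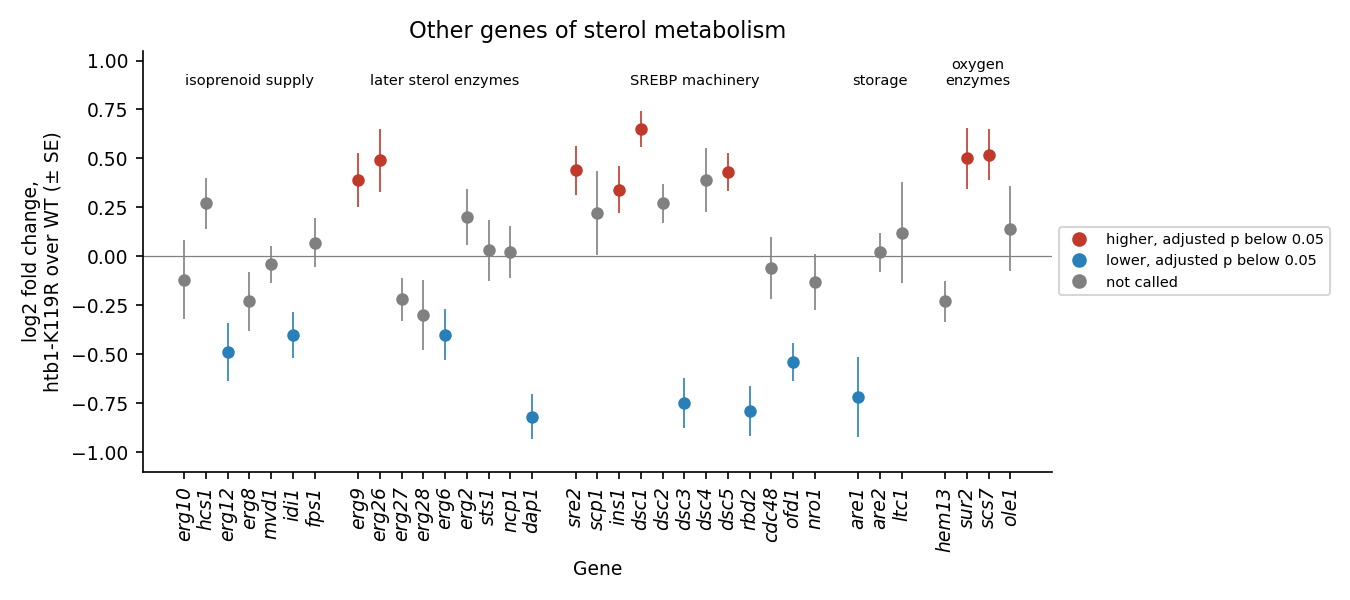
log2 fold change of *htb1-K119R* over WT with its SE for the 35 further genes, in 5 groups, with red for a higher and blue for a lower transcript level at an adjusted *P* below 0.05 in edgeR. Each group except the oxygen enzymes has members called lower, the SREBP machinery has 4 called higher and 3 called lower, and the points range from −0.82 for *dap1* to 0.65 for *dsc1*.

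In the supply of isoprenoids, 0 of 7 genes were higher and 2 were lower in edgeR, and at an unadjusted *P* of 0.05 and in DESeq2 the counts were also 0 and 2. *erg12*, which encodes mevalonate kinase, had a log2 fold change of −0.49 (19.0 ± 0.761 CPM in *htb1-K119R* and 26.4 ± 5.43 CPM in WT, adjusted *P* = 0.0262 in edgeR). *idi1*, which encodes isopentenyl diphosphate isomerase, had −0.40 (81.5 ± 5.32 CPM in *htb1-K119R* and 107 ± 14.1 CPM in WT, adjusted *P* = 0.0235 in edgeR). Over all genes, 18.6% were called higher and 19.3% lower. The uncalled genes of this list had −0.23 (*erg8*), −0.12 (*erg10*), −0.04 (*mvd1*), 0.07 (*fps1*), and 0.27 (*hcs1*). *hcs1*, which encodes HMG-CoA synthase, had 521, 532, and 550 CPM in *htb1-K119R*, against 488, 455, and 385 CPM in WT, so its libraries did not overlap, but it was not called (adjusted *P* = 0.127 in edgeR). With library totals in edgeR, *hcs1* was called higher (0.45, adjusted *P* = 0.00441) and the calls of *erg12* (−0.36, adjusted *P* = 0.381) and *idi1* (−0.21, adjusted *P* = 0.199) were lost. This gave 1 gene higher and 0 lower, where 815 of all 4969 genes were higher and 403 lower. With the GC and length offsets, *hcs1* (0.29, adjusted *P* = 0.0247) and *erg8* (−0.35, adjusted *P* = 0.0378) were called in edgeR, and *idi1* was not (−0.15, adjusted *P* = 0.254). In edgeR, *erg12* lost its call without *htb1-K119R* replicate 1 (−0.51), 2 (−0.47), or 3 (−0.49), and *idi1* without WT replicate 1 (−0.34) or 2 (−0.34) and *htb1-K119R* replicate 1 (−0.38) or 3 (−0.36).

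Of 9 further enzymes and cofactors from squalene onward, 2 were higher and 2 lower in edgeR, against 18.6% and 19.3% of all genes. *dap1* encodes a heme-binding protein that sustains the P450 enzymes Erg11 and Erg5, and it had 18.8, 22.0, and 21.5 CPM in *htb1-K119R*, against 33.9, 37.3, and 38.7 CPM in WT. This is a log2 fold change of −0.82 (SE 0.115, adjusted *P* = 0.000361 in edgeR). *ncp1*, which encodes the reductase that feeds electrons to these P450 enzymes, had 138 ± 19.8 CPM in *htb1-K119R* and 137 ± 16.4 CPM in WT. *erg26*, which encodes a C-4 decarboxylase, had a log2 fold change of 0.49 (adjusted *P* = 0.0344 in edgeR), and *erg9*, which encodes squalene synthase, had 0.39 (adjusted *P* = 0.0467 in edgeR). *erg6*, which encodes the C-24 methyltransferase, had −0.40 (adjusted *P* = 0.0342 in edgeR). With library totals in edgeR, *erg6* (−0.22, adjusted *P* = 0.112) and *erg9* (0.52, adjusted *P* = 0.146) were not called, and *erg2*, which encodes the C-8 sterol isomerase, was called higher (0.39, adjusted *P* = 0.0106, against 0.20 and adjusted *P* = 0.298 with TMM). *erg26* was not called with the GC and length offsets (0.46, adjusted *P* = 0.0516 in edgeR). *dap1* was called in all 6 fits without 1 library, whereas *erg6*, *erg9*, and *erg26* were called in 1, 2, and 2 of them, with adjusted *P* values up to 0.133, 0.177, and 0.11 in edgeR. *erg6* lost its call without WT replicate 1 (−0.33) or 2 (−0.40) and *htb1-K119R* replicate 1 (−0.39), 2 (−0.40), or 3 (−0.44). *erg9* lost it without WT replicate 1 (0.30) or 2 (0.34) and *htb1-K119R* replicate 1 (0.35) or 3 (0.32), and *erg26* without WT replicate 2 (0.53) and *htb1-K119R* replicate 1 (0.51), 2 (0.47), or 3 (0.47).

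Of 12 genes for the SREBP machinery, 4 were higher and 3 lower in edgeR, against 18.6% and 19.3% of all genes, and DESeq2 gave 3 and 3. The Golgi Dsc E3 ligase, which is required for the cleavage of Sre1, was split between the directions. *dsc1*, its RING-type ligase subunit, had 133, 135, and 133 CPM in *htb1-K119R*, against 87.1, 82.7, and 86.0 CPM in WT, a log2 fold change of 0.65 (SE 0.091, adjusted *P* = 0.000373 in edgeR). *dsc5* had 0.43 (adjusted *P* = 0.00612 in edgeR), and *dsc2* (0.27, adjusted *P* = 0.0579 in edgeR) and *dsc4* (0.39, adjusted *P* = 0.0812 in edgeR) were not called. *dsc4* was called without WT replicate 1 (0.56, adjusted *P* = 0.0156 in edgeR) and had 0.21 without WT replicate 3 (adjusted *P* = 0.0789 in edgeR). *dsc3* had 18.8, 18.4, and 20.6 CPM in *htb1-K119R*, against 27.6, 34.9, and 34.6 CPM in WT, a log2 fold change of −0.75 (SE 0.127, adjusted *P* = 0.00125 in edgeR). This split depended on the scaling, as with library totals *dsc1* (0.81), *dsc5* (0.59), *dsc2* (0.44, adjusted *P* = 0.036), and *dsc4* (0.59, adjusted *P* = 0.0048) were called higher in edgeR and *dsc3* (−0.60, adjusted *P* = 0.0859) was not called.

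*rbd2*, which encodes a rhomboid protease that acts in the cleavage of Sre1, had 19.3, 18.6, and 15.4 CPM in *htb1-K119R*, against 31.7, 32.4, and 28.3 CPM in WT. Its log2 fold change was −0.79 (SE 0.126, adjusted *P* = 0.000851 in edgeR). *ofd1*, which encodes a dioxygenase that speeds the breakdown of the N-terminal part of Sre1 when oxygen is present, had 73.2, 63.7, and 70.3 CPM in *htb1-K119R*, against 104, 96.4, and 101 CPM in WT. The log2 fold change of *ofd1* was −0.54 (SE 0.0985, adjusted *P* = 0.00196 in edgeR), and that of *nro1*, whose product inhibits Ofd1, was −0.13 (adjusted *P* = 0.506 in edgeR). The lower *rbd2* and *ofd1* levels were called in all 6 fits without 1 library. With library totals in edgeR, *ofd1* (−0.38, adjusted *P* = 0.137) was not called.

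*sre2*, which encodes the second SREBP of fission yeast, had 70.5 ± 7.19 CPM in *htb1-K119R* and 52.0 ± 7.41 CPM in WT, a log2 fold change of 0.44 (adjusted *P* = 0.0206 in edgeR). It was thus called in the same direction as *sre1*, and like *sre1* it was not called with the GC and length offsets, where the value was 0.06 (adjusted *P* = 0.655 in edgeR). The call of *sre2* was also lost with library totals (0.58, adjusted *P* = 0.105 in edgeR) and in limma on log2(FPKM + 1) (0.58, adjusted *P* = 0.0905). *ins1*, which encodes the Insig homolog that acts on Hmg1, had 0.34 (adjusted *P* = 0.0453 in edgeR, and 0.0508 in DESeq2). *sre2* and *ins1* were called in 3 and 2 of the 6 fits without 1 library, with adjusted *P* values up to 0.103 and 0.146 in edgeR. *sre2* lost its call without WT replicate 1 (0.36) or 2 (0.40) and *htb1-K119R* replicate 1 (0.35), and *ins1* without WT replicate 2 (0.38) and *htb1-K119R* replicate 1 (0.36), 2 (0.29), or 3 (0.35). *scp1*, the partner of Sre1, had 24.1, 20.8, and 22.4 CPM in *htb1-K119R*, against 13.6, 16.4, and 27.0 CPM in WT, where WT replicate 3 was above all other libraries. Its log2 fold change was 0.22 (adjusted *P* = 0.44 in edgeR), and without WT replicate 3 it was 0.58 and called (adjusted *P* = 0.00106 in edgeR).

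For sterol storage and transport, 0 of 3 genes were higher and 1 was lower in edgeR, against 18.6% and 19.3% of all genes, with the same counts at an unadjusted *P* of 0.05 and in DESeq2. *are1*, which encodes a sterol O-acyltransferase, had 10.5, 6.59, and 8.62 CPM in *htb1-K119R*, against 12.1, 12.6, and 17.6 CPM in WT (log2 fold change −0.72, adjusted *P* = 0.0193 in edgeR). *are2*, the other acyltransferase gene, had 132 ± 5.68 CPM in *htb1-K119R* and 129 ± 9.26 CPM in WT. The call of *are1* was lost in edgeR without *htb1-K119R* replicate 2 (−0.58, adjusted *P* = 0.0622) or 3 (−0.72, adjusted *P* = 0.0616). It was also lost with library totals (−0.58, adjusted *P* = 0.236 in edgeR) and in limma on log2(FPKM + 1) (−0.45, adjusted *P* = 0.26). Among 4 other oxygen-dependent enzymes of lipid and heme synthesis, 2 were higher and 0 lower in edgeR, against 18.6% and 19.3% of all genes, with the same counts at an unadjusted *P* of 0.05 and in DESeq2. These were *sur2*, which encodes a sphingolipid C-4 hydroxylase (0.50, adjusted *P* = 0.0256 in edgeR), and *scs7*, which encodes a sphingolipid fatty acid hydroxylase (0.52, adjusted *P* = 0.0103 in edgeR). *sur2* and *scs7* were called in 2 and 4 of the 6 fits without 1 library, with adjusted *P* values up to 0.105 and 0.0605 in edgeR. *sur2* lost its call without WT replicate 2 (0.55) and *htb1-K119R* replicate 1 (0.55), 2 (0.43), or 3 (0.52), and *scs7* without WT replicate 2 (0.50) and *htb1-K119R* replicate 1 (0.49). *ole1*, which encodes the delta-9 fatty acid desaturase, had 5360 ± 341 CPM in *htb1-K119R* and 4860 ± 962 CPM in WT and was not called (adjusted *P* = 0.638 in edgeR), but it was called with library totals (0.34, adjusted *P* = 0.00148 in edgeR). Without WT replicate 3, *erg10*, *erg27*, *erg28*, *hem13*, and *nro1* were called lower, by −0.31, −0.28, −0.50, −0.28, and −0.26, and *ltc1* was called higher, by 0.51, in edgeR.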

How the data were processed

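RNA-seq of 3 *htb1-K119R* and 3 WT libraries was analyzed, grouped by the genotype label. Per the labels and the study's methods, total RNA was extracted with Trizol, enriched with oligo(dT), sequenced on an Illumina HiSeq instrument, cleared of rRNA reads, and mapped with HISAT2 (Ensembl release 45 genome). The submitters' processing notes also name fastp, Bowtie2, RSEM, and DESeq2 without roles, and the counting tool and its use of strand are not given in the sources used here. For each gene and library the authors deposited a whole-number count, not normalized, and an FPKM value, which the authors made with StringTie. The deposited group means, log2 ratios, p-values, and FDR hold the authors' own comparison and were not used, nor were 12 further per-sample columns of a second table of selected genes.

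The fit used R 4.3.3 and edgeR 4.0.16 (TMM, filterByExpr, glmQLFit and glmQLFTest, genotype only), with Benjamini-Hochberg adjustment over the 4969 genes tested and a call at an adjusted *P* below 0.05. CPM values are TMM-scaled, intervals are 95%, and SEs are those of the fit. P-values of the fit set the difference between genotypes against the spread between libraries of the same genotype, estimated with information from all genes. They cover these 6 libraries only. Intervals of the fit include counting error, and the floor of 3 counts covers counting error only. Alternatives were DESeq2 1.42.0, RLE factors, library totals, no filter, at least 10 counts, a replicate block, limma 3.58.1 on log2(FPKM + 1) and log2(FPKM + 0.1), lowess offsets (span 0.3) for GC content and length, an adjusted *P* below 0.01, and leaving out each library. A scaling to library totals that leave out the 100 most counted genes was chosen after seeing the data. Same-numbered libraries had deviations that correlated at −0.23, 0.356, and 0.298, so the numbers were not taken to pair them.

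The members and lists were chosen with earlier results of these data known. Every member and every list gene called is named, and other list genes are given where a setting changed their call or as a partner. Of 36 list genes 35 were found, 3 by RefSeq symbol and 2 by another symbol, *ncp1* as *ccr1* and *sts1* as *erg4*, and *ncr1* was not matched. Gene IDs were matched to RefSeq's ASM294v3 for 5109 of 5184 IDs (98.6%). Windows and promoters were read from that genome, and the build behind the deposited values could not be compared with it. Copies were searched with BLAST 2.17.0. The fits were tested on simulated data with changes planted in known genes. A first criterion, on the share of small changes called, was missed by limma on FPKM with 1 of the random seeds, and it was then replaced by criteria on false calls, large changes, and, for the count fits, the size of the recovered fold changes, which were met. Tables and ratios were made with pandas 2.3.3 and scipy 1.17.1 under Python 3.11.15.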

Additional observations from a re-analysis of the deposited data

How the results depend on the processing

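Over the 10 sterol genes and 19 alternatives, 190 fold changes were recomputed. Of these, 147 kept their side of the threshold, 26 lost the call, and 17 gained it, and no called value changed sign. Among those 147, the uncalled *erg24*, *erg25*, *erg31*, and *erg5* changed sign in 14. No member passed 2-fold under any alternative. With library totals, 4 members were higher and 0 lower, 403 genes in all were lower (108 by over 2-fold), and 11 list genes were higher and 2 lower. Limma on log2(FPKM + 1), on log2(FPKM + 0.1), and on log2(FPKM + 1) without the filter each gave 4 members higher and 0 lower, with 449, 444, and 445 genes lower in all, 66, 105, and 66 of them by over 2-fold, and 11 list genes higher and 2 lower. Totals that leave out the 100 most counted genes, chosen after seeing the data, gave 3 members higher and 0 lower. With these totals 899 genes in all were higher and 595 lower, with a median of 0.09 over all genes, and 11 list genes were higher and 6 lower. With the GC and length offsets, 1 member was higher and 2 lower. At an adjusted *P* below 0.01, 0 members were higher and 0 lower, 521 genes in all were higher and 522 lower, and 2 list genes were higher and 4 lower. The cause of these shifts was not tested.

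Leaving out 1 library at a time gave 0 to 2 members higher and 0 to 2 lower, 577 to 1319 genes in all higher and 570 to 1375 lower, 223 to 291 higher and 165 to 214 lower by over 2-fold, and 2 to 10 list genes higher and 4 to 13 lower.

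With the replicate number as a block, 2 members were higher and 1 lower, as without it, and 1026 genes in all were higher and 1002 lower, 241 and 176 of them by over 2-fold. With the block, 9 list genes were higher and 7 lower, where *dsc4* (0.41) gained and *erg6* (−0.40) lost a call. The block with the GC and length offsets gave 1 member higher and 2 lower. Not every library correlated best with its own number.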
